A study of Homo sapiens with 8 samples.

Results

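The mRNA levels of 10 genes of the unfolded protein response were described in EndoC-βH5 cells after 48 h with proinflammatory cytokines. The genes were taken by name, by a rule that uses no measured value, with earlier results of these data known, and all 10 were among the 16525 genes of the deposited table. They are EIF2AK3, ERN1 and ATF6, which encode the stress sensors PERK, IRE1α and ATF6, the transcription factor genes XBP1, ATF4, ATF3 and DDIT3 (CHOP), TRIB3, PPP1R15A (GADD34) and HSPA5 (BiP). EndoC-βH5 is a human beta-cell line that originated from fetal pancreatic tissue, was immortalised with SV40 large T antigen and telomerase, and was later freed of both transgenes, so the results concern 1 cell line. The 4 control libraries came from untreated cells, and the 4 cytokine libraries from cells kept for 48 h with IL-1β at 50 U/mL plus IFNγ and TNFα, each at 1000 U/mL. The labels give no other difference between the groups.

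Proteins that enter the endoplasmic reticulum (ER) are folded there by chaperones such as BiP. When unfolded proteins build up, 3 sensors in the ER membrane respond: PERK phosphorylates the translation factor eIF2α, which slows protein synthesis and favours translation of ATF4, IRE1α removes a short intron from XBP1 mRNA so that an active factor is made, and ATF6 is cut in the Golgi to free its own transcription factor. Beta cells secrete large amounts of insulin and depend on this response. Much of it acts on splicing, phosphorylation and proteolysis, and mRNA read counts per gene do not measure those steps.

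The sequences upstream of 4 of the genes are shown because they hold exact matches to 1 of the 5 motifs searched, and the levels of the same genes are given further on. All are the 250 bases before a RefSeq transcription start on GRCh38.p14, written 5′ to 3′ on the strand of the gene, with the matched bases in capitals. The ER stress response element (ERSE) was searched as CCAAT, 9 bases of any kind and CCACG, the ATF6 site as TGACGTGG, the cAMP response element (CRE) as TGACGTCA, the amino acid response element (CARE) as TGATGNAA and the interferon-gamma activated site (GAS) as TTCNNNGAA, each on both strands. HSPA5 (chr9:125241344-125241593, minus strand) and XBP1 (chr22:28800570-28800819, minus strand) each held 1 ERSE, which lay 66 to 48 bases before the start in HSPA5 and 52 to 34 bases before it in XBP1. PPP1R15A (chr19:48872171-48872420, plus strand) held a CRE 58 to 51 bases before its start, and the upstream of the ATF3 starts (chr1:212565157-212565406, plus strand) held a CARE 191 to 184 bases before it.
HSPA5: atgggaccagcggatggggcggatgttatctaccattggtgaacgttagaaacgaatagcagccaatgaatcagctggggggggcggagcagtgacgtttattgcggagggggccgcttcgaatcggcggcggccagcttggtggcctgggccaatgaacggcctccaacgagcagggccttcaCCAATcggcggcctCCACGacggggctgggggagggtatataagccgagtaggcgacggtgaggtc
XBP1: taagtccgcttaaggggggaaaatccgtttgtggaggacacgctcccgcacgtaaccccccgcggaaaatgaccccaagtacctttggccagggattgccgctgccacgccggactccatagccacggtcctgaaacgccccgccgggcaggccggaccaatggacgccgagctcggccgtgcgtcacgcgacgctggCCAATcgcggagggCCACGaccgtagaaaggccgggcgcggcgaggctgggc
PPP1R15A: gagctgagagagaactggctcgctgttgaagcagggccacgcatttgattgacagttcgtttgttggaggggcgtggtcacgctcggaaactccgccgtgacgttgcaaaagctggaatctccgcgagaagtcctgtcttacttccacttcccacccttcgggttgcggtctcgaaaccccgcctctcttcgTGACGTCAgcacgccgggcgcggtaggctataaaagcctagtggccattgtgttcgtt
ATF3: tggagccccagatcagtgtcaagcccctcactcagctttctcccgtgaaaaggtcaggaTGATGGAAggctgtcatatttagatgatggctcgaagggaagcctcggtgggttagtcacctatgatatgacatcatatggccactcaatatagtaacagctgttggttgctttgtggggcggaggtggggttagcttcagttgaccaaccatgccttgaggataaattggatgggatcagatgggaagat
Of 35116 human promoter windows of the same length, 0.074% held the ERSE, 0.612% the ATF6 site, 1.65% the CRE, 3.14% the CARE and 6.57% the GAS. No exact match to these 5 motifs was in the windows of the other 6 genes, nor in the second window of XBP1 and of ATF3. Each match is a string of letters in a window, and binding was not measured.

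Between 36956294 and 40117636 reads fell on the listed genes in a control library and between 36577438 and 39348935 in a cytokine library, and the 10 genes had 72 to 34663 reads each per library. Values are CPM (reads relative to the library total), in which 1 read was worth 0.0196 to 0.0214 CPM. The libraries are called A to D in each group by the first part of the name that a control and a cytokine column share. A and B also share an ending, as do C and D, whose meaning is not given in the sources used here. All 14 beta-cell markers were measured, with INS at 1158 to 2905 CPM in control libraries and 1445 to 2172 CPM in cytokine libraries. All 7 alpha and delta cell markers were also detected and summed to 509 to 2241 CPM in control and 622 to 2078 CPM in cytokine libraries, most of it SST. Of 7 exocrine and duct markers 2 were listed and of 7 stromal, endothelial and immune markers 2, and they summed to 88.2 to 167.5 CPM in control and 84.6 to 166 CPM in cytokine libraries for the former, mostly KRT19, and to at most 6.41 CPM for the latter, and a part of any of these cells in the results was not tested. In such bulk samples, fewer cells of a type and less RNA per cell cannot be told apart.

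Of the 10 genes, 6 were higher in the cytokine libraries: the sensor genes EIF2AK3 and ERN1, the factor genes ATF4, ATF3 and DDIT3, and PPP1R15A. ATF3 differed most, with a 71.9-fold ratio of the means, followed by PPP1R15A with 8.63-fold, while the other 4 lay between 1.67-fold and 2.08-fold. No gene of the 10 was called lower by limma, edgeR or DESeq2, and all 10 log2 fold changes were above 0. ATF6, XBP1, TRIB3 and HSPA5 did not pass the test. Calls required a log2 fold change of over 0.5 in size together with a false discovery rate under 0.05 (limma on log2(CPM + 0.1), Benjamini-Hochberg over 16525 genes), by which 9.52% of all genes were called higher, 17.5% lower and 27.0% in either direction. In the same 6 genes every cytokine library lay above every control library, which held for 10.8% of all genes. The median log2 fold change was 0.74 over the 10 genes and -0.17 over all genes. Scaling by TMM, which sets the bulk of genes near no change, moved the median of all genes to -0.02 and called 8 of the 10 higher, with XBP1 and HSPA5 added, beside 13.0% of all genes called higher and 11.7% lower. It also moved the share of lower calls among all calls from 64.8% to 47.3%.

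**Figure D1:**
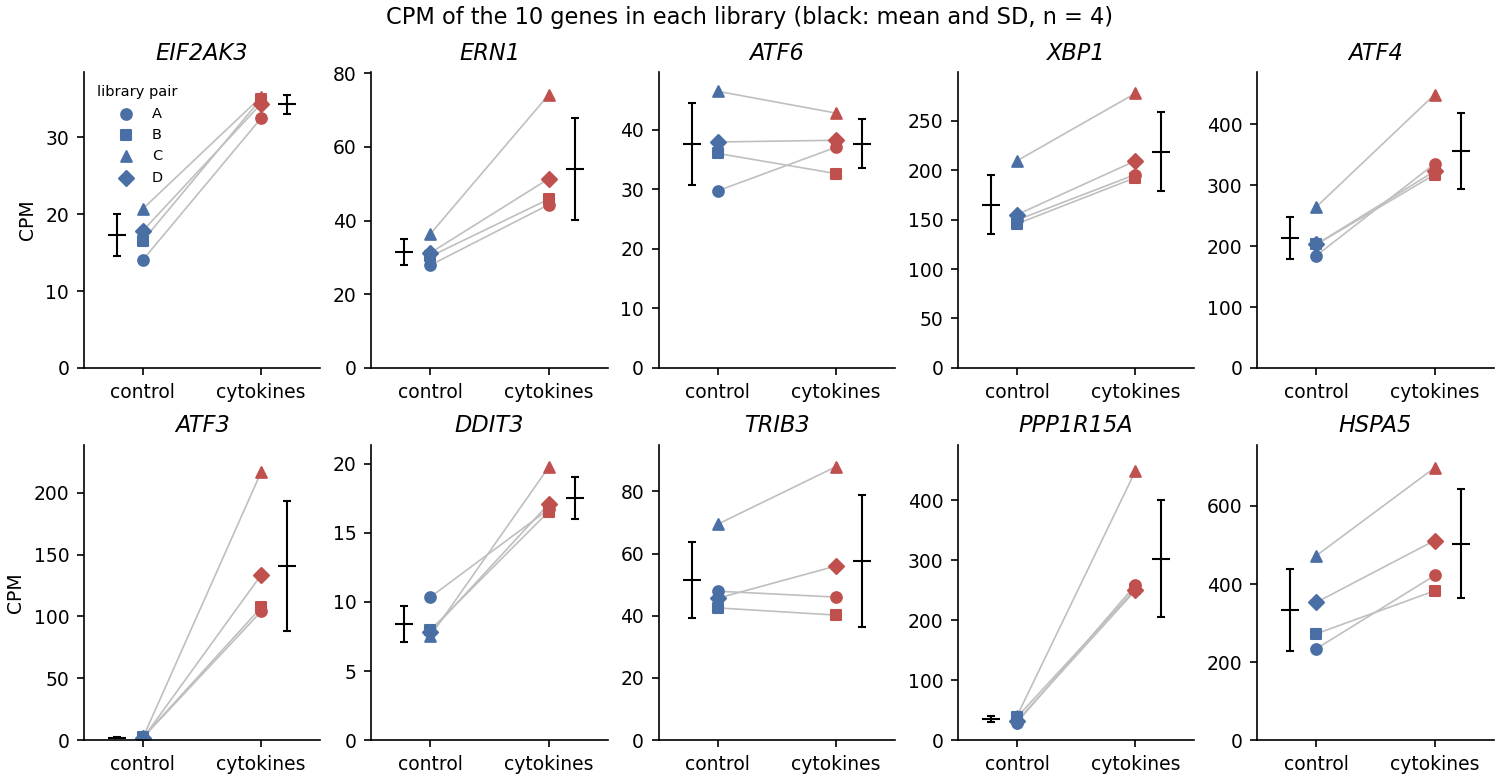
CPM of each of the 10 genes in the 4 control (blue) and 4 cytokine (red) libraries, with a symbol for each pair A to D, lines joining the pairs and black bars for mean and SD (n = 4), each axis starting at 0. The groups are apart in EIF2AK3, ERN1, ATF4, ATF3, DDIT3 and PPP1R15A and overlap in ATF6, XBP1, TRIB3 and HSPA5, and cytokine library C is the highest of its group in all 10 panels.

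EIF2AK3 encodes PERK, the kinase that phosphorylates eIF2α under ER stress. It was at 14.1, 16.6, 20.7 and 17.9 CPM in control libraries A to D and at 32.5, 35.1, 35.3 and 34.4 CPM in cytokine libraries A to D. The groups did not overlap, and the cytokine libraries lay closer together (34.3 ± 1.26 CPM, SD, n = 4) than the controls (17.3 ± 2.77). The log2 fold change was 0.997 (SE 0.14, limma adjusted p = 0.000305), and within pairs it ranged from 0.77 in C to 1.204 in A. The gene (chromosome 2, 88556741 to 88627576, minus strand, GRCh38) shares 819 exon bases with 2 antisense transcripts on the opposite strand, and the libraries were made with a strand-specific kit.

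ERN1 encodes IRE1α, a kinase and RNase that starts the splicing of XBP1 mRNA. Its level was 27.9, 30.3, 36.4 and 31.2 CPM in control libraries A to D and 44.3, 45.8, 74.1 and 51.4 CPM in cytokine libraries A to D. The lowest cytokine library was above the highest control library, and cytokine library C stood above the other cytokine libraries. On the log2 scale the change was 0.75 (SE 0.17, limma adjusted p = 0.00699), with 0.60 in pair B and 1.03 in pair C. The gene lies on chromosome 17 (64039142 to 64130819, minus strand).

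ATF6, the third sensor gene, was at 29.8, 36.0, 46.5 and 38.0 CPM in control libraries A to D and at 37.1, 32.7, 42.8 and 38.3 CPM in cytokine libraries A to D. The ranges overlapped almost fully, with means of 37.6 ± 6.9 and 37.7 ± 4.18 CPM (SD, n = 4). The log2 fold change was 0.02 (limma adjusted p = 0.946) with a 95% interval from -0.31 to 0.35, so this fit leaves changes within these bounds undecided. With pairs as a replicate block the log2 fold change was 0.02 by limma (adjusted p = 0.876). By edgeR with the block and TMM scaling it was 0.17 (adjusted p = 0.0623). Pairs A and D had ratios above 1 and pairs B and C below it. Its sign also changed when single libraries were left out, from -0.09 without control A to 0.12 without control C. ATF6 lies on chromosome 1 (161766294 to 161964070, plus strand).

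XBP1 encodes the factor that IRE1α activates and that drives genes of ER-associated degradation and secretion. It was at 150, 146, 210 and 155 CPM in control libraries A to D and at 196, 192, 278 and 209 CPM in cytokine libraries A to D. Control library C lay above cytokine libraries A, B and D, so the groups overlapped, while within each pair the cytokine library was higher by nearly the same amount, 0.39 to 0.43 on the log2 scale. The log2 fold change of 0.41 (SE 0.16, limma adjusted p = 0.0789) was not called. Pairing the libraries as a replicate block lowered the adjusted p to 1.7e-05 and left the fold below the threshold of 0.5. With TMM scaling the log2 fold change was 0.56 and was called (adjusted p = 0.013), and it was 0.53 and called without control library C (adjusted p = 0.0222). Reads were counted per gene, so spliced and unspliced XBP1 mRNA are counted together here (chromosome 22, 28794555 to 28800597, minus strand). GENCODE lists 1 processed pseudogene of XBP1 and 4 of ATF4. The authors counted reads with HTSeq at its default settings, and an effect of such copies on the counts was not tested.

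ATF4 encodes the factor whose translation rises when eIF2α is phosphorylated and which drives genes of amino acid supply. It was at 185, 203, 264 and 203 CPM in control libraries A to D and at 335, 318, 449 and 323 CPM in cytokine libraries A to D. The groups did not overlap, and library C was the highest in both. Its log2 fold change was 0.74 (SE 0.16, limma adjusted p = 0.00511), and the 4 pairs ranged from 0.65 to 0.86. ATF4 lies on chromosome 22 (39519695 to 39522685, plus strand).

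ATF3 encodes a stress-induced member of the ATF and CREB family, whose gene is also a known target of ATF4 and of kinase pathways. The control libraries A to D held 2.1, 2.29, 2.03 and 1.41 CPM, and the cytokine libraries A to D held 104, 107.3, 217 and 134 CPM. The lowest control library had 72 reads on the gene, so the low control level was measured well above the limit of 3 reads used for a count of 0. The log2 fold change was 6.05 (SE 0.24, limma adjusted p = 2.41e-08), which ranked 43 among the rises of all 16525 genes. Within pairs it was 5.57 in A, 5.49 in B, 6.67 in C and 6.47 in D. The gene spans 212565334 to 212620777 on the plus strand of chromosome 1, and the window with the CARE shown above belongs to its upstream start.

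DDIT3 encodes CHOP, a factor linked to cell death under lasting ER stress. It was at 10.3, 7.96, 7.53 and 7.82 CPM in control libraries A to D and at 16.7, 16.5, 19.7 and 17.1 CPM in cytokine libraries A to D. Control library A stood above the other controls and still lay below every cytokine library. This gave a log2 fold change of 1.06 (SE 0.15, limma adjusted p = 0.000359), from 0.68 in pair A to 1.38 in pair C. The gene (chromosome 12, 57516588 to 57521737, minus strand) shares 105 exon bases with a transcript on the same strand, so a part of its reads is uncertain. It also shares 413 with MARS and MBD6 on the opposite strand, and the libraries were made with a strand-specific kit. An effect of these overlaps on the counts was not tested.

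TRIB3 encodes a pseudokinase that is a target of ATF4 and CHOP and binds the kinase AKT. Its level was 47.9, 42.5, 69.4 and 45.6 CPM in control libraries A to D and 46.0, 40.2, 88.0 and 56.0 CPM in cytokine libraries A to D. The groups overlapped, the ratio was slightly below 1 in pairs A and B and above 1 in pairs C and D, and library C was the highest in both groups. Its change was 0.12 on the log2 scale (SE 0.24, limma adjusted p = 0.732) with a 95% interval from -0.40 to 0.65. Without cytokine library C the change was -0.10. With pairs as a replicate block it was 0.12 by limma (adjusted p = 0.21). By edgeR with the block and TMM scaling it was 0.28 (adjusted p = 0.0185), below the fold threshold of 0.5. TRIB3 lies on chromosome 20 (362835 to 397559, plus strand).

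PPP1R15A encodes GADD34, the regulatory subunit that directs protein phosphatase 1 to eIF2α and so reverses the action of PERK. It was at 29.3, 38.4, 40.2 and 32.0 CPM in control libraries A to D and at 258, 252, 448 and 249 CPM in cytokine libraries A to D. Cytokine libraries A, B and D lay close together and C far above them, and all 4 were above every control. The difference on the log2 scale was 3.07 (SE 0.20, limma adjusted p = 1.08e-06), rank 203 among all rises, with 2.71 in pair B and 3.47 in pair C. Its window with the CRE is printed above, and the gene lies on chromosome 19 (48872392 to 48876057, plus strand).

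HSPA5 encodes BiP, the main ER chaperone, which binds and holds the sensors in unstressed cells. It was at 234, 273, 473 and 353 CPM in control libraries A to D and at 422, 383, 698 and 511 CPM in cytokine libraries A to D. Control library C lay above cytokine libraries A and B, so the groups overlapped, while the cytokine library was higher in all 4 pairs, by 0.85, 0.49, 0.56 and 0.53 on the log2 scale in A to D. The log2 fold change of 0.61 (SE 0.24, limma adjusted p = 0.0805) was not called. HSPA5 was called with pairs as a replicate block (limma adjusted p = 1.68e-06), with TMM scaling (log2 fold change 0.76, adjusted p = 0.0221), without control library C (0.79, adjusted p = 0.0235) and without both libraries of pair C (0.62, adjusted p = 0.0313). The gene lies on chromosome 9 (125234853 to 125241330, minus strand).

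**Figure D2:**
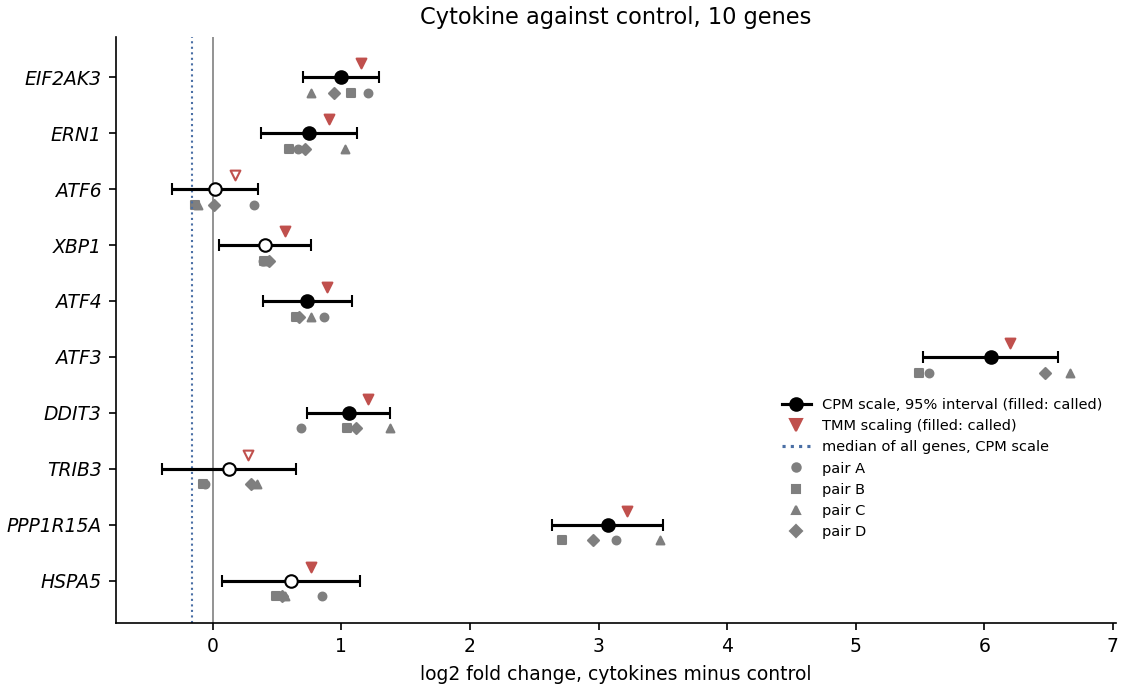
Log2 fold change of each of the 10 genes, cytokines minus control, with the limma estimate on the CPM scale and its 95% interval (black, filled where called), the 4 library pairs (grey symbols) and the TMM-scaled value (red, filled where called). ATF3 at 6.05 and PPP1R15A at 3.07 lie far right of the others, the pairs of XBP1 lie nearly on 1 point, and the TMM values are higher by about the distance of the dotted line, the median of all genes at -0.17, from 0.

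A 2-sided exact permutation test of the 4 against 4 libraries gave p = 0.0286, the smallest it can give, for each of the 6 genes whose groups did not overlap. The same exact test gave p = 0.114 for XBP1 and for HSPA5, p = 0.657 for TRIB3 and p = 0.971 for ATF6. It takes no account of the pairs, so the spread between pairs enters these p-values. In XBP1 and HSPA5 the cytokine library was the higher one in all 4 pairs.

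Cytokine library C was the highest of its group in 10 of the 10 genes, against 33.7% of all genes, and control library C in 8 of the 10, against 46.9%. The exceptions among the controls were DDIT3, highest in A, and ATF3, highest in B. The part of library C in the results was measured by leaving out both libraries of pair C: 7 genes were then called higher, the 6 above and HSPA5, beside 9.56% of all genes called higher and 14% lower. Whether the response differed between A and B on the one hand and C and D on the other was tested by an interaction. None of the 10 genes was called in it by limma or edgeR, and 0.0303% of all genes were called by limma. At an unadjusted p under 0.05 there was 1 gene of the 10 by either tool, ATF3, beside 2.95% of all genes by limma and 2.7% by edgeR. Its log2 fold change was 5.53 in A and B and 6.57 in C and D, a difference of 1.04 (SE 0.32, limma unadjusted p = 0.00755, adjusted p = 0.999).

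To compare levels between genes, the reads were divided by the union of exon lengths and expressed as TPM, a level per length that sums to the same total in each library, over the 16167 genes with a length. In control libraries HSPA5 (336 TPM) and ATF4 (329 TPM) were at the top, followed by XBP1 (211), TRIB3 (58.1), PPP1R15A (43.5), DDIT3 (24.4), ATF6 (18.5), EIF2AK3 (12.4), ERN1 (11.2) and ATF3 (1.83). The ranges of neighbours in this order overlapped except between XBP1 and TRIB3, between PPP1R15A and DDIT3, and between ERN1 and ATF3. The 3 sensor genes thus had TPM levels far below the chaperone gene, and HSPA5 was above ATF4 in 2 of 4 control libraries. In cytokine libraries the order was ATF4 (592 TPM), HSPA5 (545), PPP1R15A (410), XBP1 (303), ATF3 (147), TRIB3 (71.1), DDIT3 (55.9), EIF2AK3 (26.3), ERN1 (20.9) and ATF6 (19.98), with neighbours apart only between DDIT3 and EIF2AK3. PPP1R15A was above XBP1 and ATF3 above TRIB3 in 4 of 4 cytokine libraries, although the ranges over libraries overlapped. Lengths of the longest transcript in place of the exon union put ATF4 before HSPA5 and ERN1 before EIF2AK3 in 4 of 4 control libraries each, where the exon union had put EIF2AK3 before ERN1 in 4 of 4. In cytokine libraries HSPA5 was above PPP1R15A in 4 of 4 with the exon union and in 1 of 4 with the longest transcript. The order of these gene pairs thus depended on the length used.

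**Figure D3:**
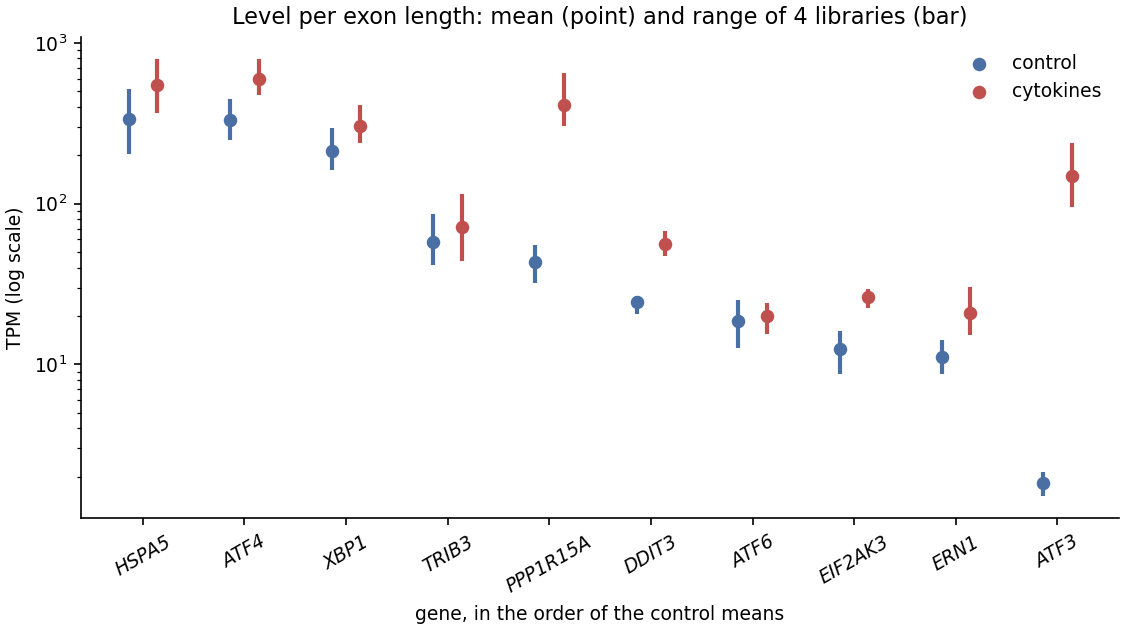
TPM of the 10 genes on a log axis, in the order of the control means, with the mean (point) and the range of 4 libraries (bar) in control (blue) and cytokines (red). ATF3 moves from the lowest place at 1.83 TPM to 147 TPM and PPP1R15A from 43.5 to 410 TPM, while ATF6 is at 18.5 and 19.98 TPM.

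Other genes of the 3 branches and genes related to them were read from 7 lists. The lists differ in length and were not compared with each other by a test. They also hold genes that do not belong to these branches alone, such as the eIF2 kinase gene EIF2AK2, and what drove a change was not tested. Over all genes, 13.7% were higher and 28.3% lower at an unadjusted limma p under 0.05. The shares of all genes called higher and lower were 13.0% and 11.6% by edgeR, 14.3% and 13.0% by DESeq2, and 11.6% and 23.8% by limma with the replicate block. Of 12 genes for eIF2 kinases and eIF2 machinery, 2 were called higher and none lower by limma, with 4 higher and 2 lower at an unadjusted p under 0.05 and a median log2 fold change of 0.19. With TMM scaling, and with edgeR, 4 were called higher, by the addition of EIF2B5 and EIF2S1, and with the replicate block 2 were higher and 1 (EIF2B3) lower. They were EIF2AK2, the kinase PKR that senses double-stranded RNA, at 31.8 ± 3.48 CPM in control and 63.2 ± 2 CPM in cytokine libraries (SD, n = 4, log2 fold change 0.99, limma adjusted p = 9.45e-05), and PPP1R15B, the constitutive counterpart of GADD34, at 30.3 ± 6.53 and 47.2 ± 8.5 CPM (0.65, limma adjusted p = 0.0172). The call of PPP1R15B was lost without control library B (0.57, adjusted p = 0.0532).

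Of 24 listed targets of ATF4 and CHOP, 9 were called higher, 3 lower and 12 in neither direction (limma, median 0.32). With TMM scaling 11 were called higher and none lower, and DESeq2 called 1 lower. GDF15, a stress-induced secreted factor, rose from 3.84 ± 1.12 to 19.6 ± 9.73 CPM (log2 fold change 2.26, limma adjusted p = 0.000284). CTH, an enzyme of cysteine synthesis, rose from 1.44 ± 0.298 to 6.68 ± 1.18 CPM (2.14, adjusted p = 3.09e-05) and the factor gene CEBPB from 3.14 ± 1.25 to 13.8 ± 4.93 CPM (2.11, adjusted p = 0.000289). The other 6 that rose had log2 fold changes of 1.08 to 1.75. The largest of these came from a gene with 0 to 9 reads per control library and 10 to 47 per cytokine library. Its size depended on the method, with 2.70 by edgeR. The 3 called lower were PSPH, an enzyme of serine synthesis (log2 fold change -0.87, limma adjusted p = 0.0485), VLDLR, a lipoprotein receptor (-0.61, adjusted p = 0.00694), and SESN2, a sestrin that restrains mTORC1 (-0.50, adjusted p = 0.0207). None of these 3 was called with TMM scaling (-0.72, -0.46 and -0.35). PSPH was also not called without control C (-0.68), control D (-0.74), or cytokine library A (-0.74), B (-0.76) or D (-0.94), and SESN2 not without control A (-0.44), control B (-0.45) or cytokine library D (-0.41). PSPH has 1 pseudogene in GENCODE, and an effect of this copy on its counts was not tested.

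Of 8 listed IRE1 partners and regulators none was called by limma, edgeR or DESeq2 and none had an unadjusted p under 0.05 (limma, median 0.10), and 1 (MAP3K5) was called lower with the replicate block. Of 14 XBP1 targets 2 were called higher and none lower by limma (median 0.33), with 4 higher and none lower at an unadjusted p under 0.05. The number called higher was 4 with TMM scaling and with edgeR, by the addition of DNAJB9 and DNAJB11, and 5 with the replicate block, and neither called any lower. The 2 called were EDEM1, which takes misfolded glycoproteins to degradation, at 16.8 ± 2.77 CPM in control and 25 ± 1.69 CPM in cytokine libraries (log2 fold change 0.58, limma adjusted p = 0.011), and SEC24D, a subunit of the COPII vesicle coat, at 131 ± 10.3 and 189 ± 9.54 CPM (0.53, adjusted p = 0.00383). EDEM1 was below the fold threshold without control library B (0.47) and SEC24D without control library D (0.49). Of 7 listed genes of ATF6 processing and related factors none was called by limma (median -0.14), with 1 higher and 1 lower at an unadjusted p under 0.05. MBTPS1 was called higher with TMM scaling, edgeR and DESeq2, and CREB3L4 lower with the replicate block. The genes named for these other settings were chosen after their values were seen.

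Of 12 ATF6 targets and ER chaperones, 5 were called higher and none lower by limma (median 0.61), with 9 higher and none lower at an unadjusted p under 0.05. The number called higher was 8 with TMM scaling, with edgeR, with the replicate block and without pair C, and none was lower in these. PDIA3, a disulfide isomerase that acts on glycoproteins, rose from 345 ± 99.3 to 776 ± 162 CPM (log2 fold change 1.19, limma adjusted p = 0.00185), PDIA6, another disulfide isomerase, from 156 ± 45 to 324 ± 74.9 CPM (1.07, adjusted p = 0.00305), and HERPUD1, a membrane protein of ER-associated degradation, from 78.6 ± 9.33 to 148 ± 20.8 CPM (0.91, adjusted p = 0.000541). GENCODE lists 2 pseudogenes of PDIA3.

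Of 8 genes tied to death under ER stress, 5 were called higher and 2 lower (limma, median 1.01). CASP4, an inflammatory caspase, rose from 4.16 ± 1.39 to 49.6 ± 5.02 CPM (log2 fold change 3.61, limma adjusted p = 1.11e-06). HRK, a BH3-only protein, rose from 1.17 ± 0.215 to 7.83 ± 2.58 CPM (2.60, adjusted p = 3.27e-05), and the death receptor gene TNFRSF10B from 5.08 ± 1.85 to 15.3 ± 7.28 CPM (1.52, adjusted p = 0.0105). TXNIP, an inhibitor of thioredoxin, fell from 2.54 ± 0.651 to 0.9 ± 0.482 CPM (-1.48, adjusted p = 0.00837), and ERO1A, the oxidase that recharges disulfide isomerases, from 43.4 ± 4.42 to 30.4 ± 1.99 CPM (-0.51, adjusted p = 0.0073). ERO1A was below the fold threshold with TMM scaling (-0.36), without control library C (-0.45) and without cytokine library D (-0.47).

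**Figure D4:**
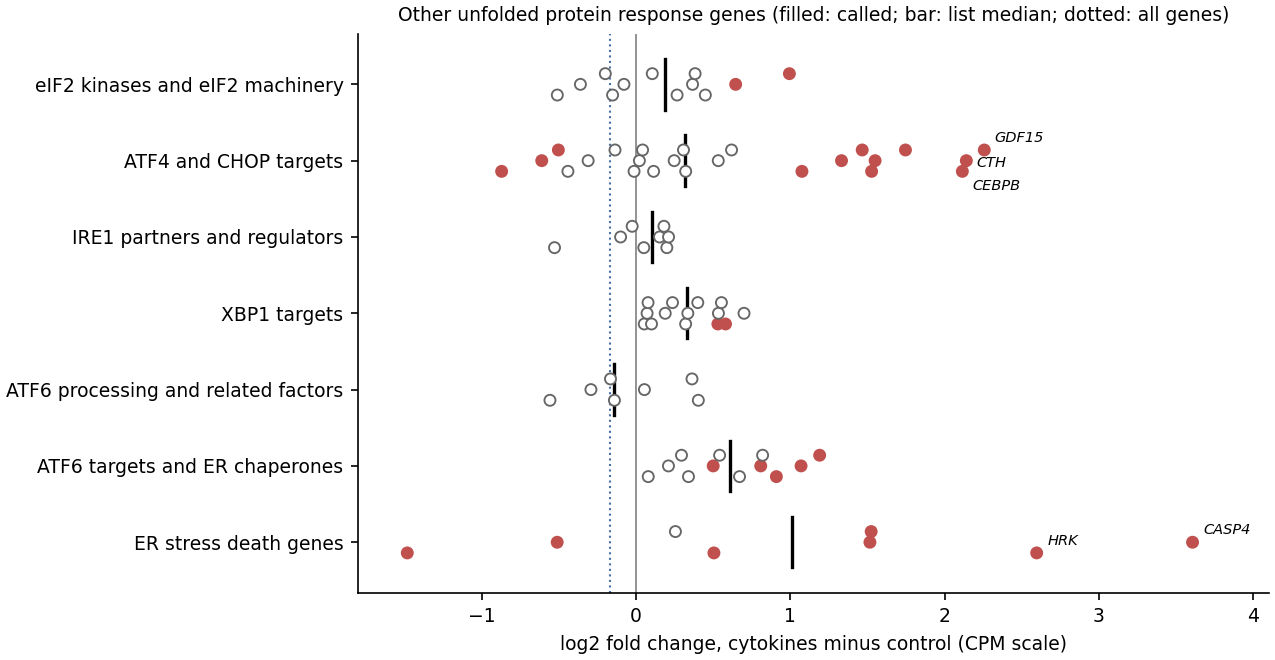
Log2 fold change on the CPM scale, cytokines minus control, of every measured gene in the 7 lists (points, filled where called), with the list median (bar) and the median of all genes at -0.17 (dotted). The medians run from -0.14 for ATF6 processing to 1.01 for the death genes, and CASP4 at 3.61 and HRK at 2.60 lie farthest right.

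For each called gene the most alike pattern over the 8 libraries was sought among 14683 genes, by Pearson correlation of log2(CPM + 0.1). The libraries share treatment, pair and depth and form separate groups, so a high value says little beyond a shared difference between the groups. ATF3 was most like the interferon-regulated factor gene IRF1, JUN and RHOBTB1 (0.998 for each), and PPP1R15A most like the co-chaperone gene DNAJB1 (0.999), MAFF (0.997) and TP53BP2 (0.996). DDIT3 was closest to SHISA9 (0.996), APOL3 (0.993) and TUBA1C (0.99), ATF4 to NR0B1 (0.998), DTNBP1 (0.995) and SIX2 (0.994), ERN1 to F11R (0.995), DUSP4 (0.994) and SQSTM1 (0.991), and EIF2AK3 to USP42 (0.998), RAB30 (0.997) and SLC7A14 (0.996). None of the 10 genes was among the 3 nearest of another.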

How the data were processed

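RNA of 8 samples was sequenced as stranded mRNA libraries with paired 100 bp reads. The authors aligned them to GRCh38 with TopHat2 2.1.1, counted them per gene of Ensembl 107 with HTSeq 0.9.1 and deposited CPM values for the genes that passed 0.5 CPM in 4 or more samples. The table has 4 further value columns, which were not used. Over the 8 libraries used here, 16154 of the 16525 genes passed this filter. Every deposited CPM value used was a whole number of reads within 0.01 read, which gave reads for 100% of values. Whether libraries came from separate cultures is not stated, so p-values measure the spread between these samples, which may be technical.

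The main test was run in R 4.3.3 with limma 3.58.1. It used log2(CPM + 0.1), a pseudocount that understates changes of low genes, with an intensity trend and no block. Alternatives were edgeR 4.0.16 and DESeq2 1.42.0 on reads, other scalings, pseudocounts, filters, a replicate block, a series term and leaving out each library. Leaving out pair C was added after seeing the data. The column names carry no replicate number of the labels, and the first part of the name was taken as the pair. Deviations from group means had correlations over genes of 0.57 (A), 0.59 (B), 0.80 (C) and 0.74 (D) in these pairs. Crossing A and B gave 0.57 and 0.59, so this check cannot separate them, and the numbers were taken to pair the samples. The chi-square per gene between libraries of a group was at least 5.90, so none was a copy. Libraries A and B were the most alike, at 13.3 in control and 5.90 in cytokines. All other comparisons within a group gave 66.9 to 296. The main test, which has no block, treats the 4 libraries of a group as equally independent. Lengths and coordinates are from GENCODE 29 and upstream windows from RefSeq. Scripts were tested on simulated data. Tables and figures used Python 3.11.15, pandas 2.3.3, numpy 2.4.6, scipy 1.17.1 and matplotlib 3.10.9.

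The 10 genes, the lists and the tests were chosen with earlier results of these data known. From each list the text names up to 3 called genes of largest rise and 3 of largest fall, and for each called gene the 3 of highest correlation among genes whose mean reached 1 CPM.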

Additional observations from a re-analysis of the deposited data

Results flagged for a closer look

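In 4 of the 20 groups formed by the 10 genes and 2 conditions, 1 library stood apart from the other 3 of its group. Its gap was above Dixon's 95% critical value for 4 samples, which chance gives in about 1 in 20 independent groups. The 20 groups come from the same 8 libraries and are not independent, so this rate cannot measure an excess here. Library C was the outlying one in 3 of the 4 groups: XBP1 in control (209.5 CPM), ATF4 in cytokines (448.9 CPM) and PPP1R15A in cytokines (448.2 CPM). The other was DDIT3 in control library A (10.35 CPM). The groups of ATF4, DDIT3 and PPP1R15A did not overlap with these libraries included. Leaving out control library C brought XBP1 past the threshold.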

How the results depend on the processing

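ATF3, PPP1R15A, DDIT3 and EIF2AK3 were called higher under all 23 alternatives. ERN1 and ATF4 were called under all but limma's test against the fold threshold, by which 4 of the 10 genes were called. Among the 10 genes the number called was 6 in the main analysis and 8 with TMM, median-of-ratios, GAPDH, edgeR and DESeq2. It was 6 with quantile normalization, 7 with a series term, and 6 to 8 with 1 library left out. With pairs as a replicate block it was 7 with limma, by the gain of HSPA5, and 8 with edgeR, as with edgeR without the block, and within each tool the block changed no other call among the 10. Without both libraries of pair C it was 7. The 28 list genes called became 12 with limma's test against the fold threshold, 39 with the block and 30 without pair C. The number called among all genes was 4470 in the main analysis, 1378 with that test and 5852 with the block in limma. The count of list genes called thus moved in the same direction as that of all genes in these settings. The sign of ATF6 turned to -0.089 without control A and -0.05 without cytokine library C, in a leave-one-out range from -0.089 to 0.12, and that of TRIB3 to -0.10 without cytokine library C, in a range from -0.10 to 0.28. The causes were not tested. Over all genes, edgeR on the recovered reads called 4067 against 4470 in the main analysis. Precision is limited by the 4 libraries per group and by the CPM scale, on which the median gene lies below 0.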
